A study of Rattus norvegicus with 4 samples.

Results

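The metallothionein genes Mt2A and Mt3, the heme oxygenase gene Hmox1 and the glutathione transferase gene Gsta1 were read by 6 of the 1322 probe sets of the series, and are 4 of the 720 genes with a probe set of a single symbol. Mt2A and Mt3 had 1 probe set each, and Hmox1 and Gsta1 had 2 each. The members are the probe sets that the platform annotation assigns to these 4 symbols. The genes were chosen by their measured change between control and KCl on these same arrays, so every difference between KCl and control given for them is a description and supports nothing further. The cultures were primary neurons from rat cortex at embryonic day 17, kept in Neurobasal medium with B27 until day 14 in vitro. Control cultures received PBS for 4 h, and treated cultures received 25 mM KCl, which depolarizes neurons, for 4 h. Each group has 2 arrays, and their titles number them control 1 and 2 and KCl 1 and 2. The labels name no strain or genotype and no separate cultures behind the arrays, so the errors may be technical. The description field uses the same unstimulated wording for all 4 arrays, KCl included, and the groups were taken from the titles and treatment protocols.

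Metallothioneins are small cysteine-rich proteins that bind zinc and copper. Mt1 and Mt2A are made in many cell types and their transcription is driven by metals through the zinc-sensing factor MTF-1, which binds metal response elements, and also by glucocorticoids and oxidants. Mt3 is largely restricted to the nervous system and is known for responding little to metals. Hmox1 encodes heme oxygenase 1, the inducible enzyme that splits heme into biliverdin, carbon monoxide and iron. Gsta1 encodes an alpha-class glutathione transferase, which couples glutathione to electrophilic compounds. Hmox1 and the alpha-class transferases are classical targets of the NRF2 pathway, which acts through antioxidant response elements.

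The metallothionein promoters are shown because the genes of this family that lie next to each other gave unlike values. In the RefSeq table Mt1, Mt2A and Mt3 follow each other on chromosome 19 with no other gene between them. The 250 bases before the start of each are printed 5′ to 3′ from RefSeq (build GRCr8, minus strand). Capitals mark matches to the metal response element core, searched as TGCACNC or TGCGCNC on both strands. The windows are chr19:10838709-10838958 for Mt2A, chr19:10832976-10833225 for Mt1 and chr19:10856081-10856330 for Mt3.
Mt2A: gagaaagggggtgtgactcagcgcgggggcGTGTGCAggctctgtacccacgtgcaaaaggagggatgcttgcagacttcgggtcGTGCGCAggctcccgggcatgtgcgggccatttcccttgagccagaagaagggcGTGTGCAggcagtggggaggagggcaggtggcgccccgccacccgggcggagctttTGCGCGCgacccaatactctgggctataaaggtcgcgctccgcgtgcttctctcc
Mt1: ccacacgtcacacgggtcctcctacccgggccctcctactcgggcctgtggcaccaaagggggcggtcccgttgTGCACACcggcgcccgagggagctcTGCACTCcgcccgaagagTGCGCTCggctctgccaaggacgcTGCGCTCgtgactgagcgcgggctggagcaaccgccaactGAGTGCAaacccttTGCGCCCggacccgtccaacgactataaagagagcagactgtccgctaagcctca
Mt3: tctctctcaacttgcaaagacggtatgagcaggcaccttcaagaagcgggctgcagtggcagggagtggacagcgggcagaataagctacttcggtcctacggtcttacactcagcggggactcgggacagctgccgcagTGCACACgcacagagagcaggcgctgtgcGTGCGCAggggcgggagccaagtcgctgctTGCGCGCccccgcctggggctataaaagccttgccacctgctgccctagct
The Mt2A window held 4 matches, the Mt1 window 6 and the Mt3 window 3. Of 27457 RefSeq promoters with a window of this length, 21.2% held at least 1 match and 1.25% held at least 3. The AP-1 site, searched as TGACTCA or TGAGTCA, which are each other's reverse complement, matched once in Mt2A and not in Mt1 or Mt3 (3.98% of promoters). The antioxidant response element core, searched as TGACNNNGC on both strands, matched once in Mt2A, overlapping the AP-1 match, and once in Mt1 (10.2% of promoters). The cAMP response element TGACGTCA matched in none of the 3 (1.70% of promoters), and its half-site TGACG matched once, in Mt1 (18.96% of promoters). The Gsta1 promoter held no match to any of these motifs, which says only that these letters are not in this window. The promoter set used had no entry for Hmox1, so that gene was not searched. A match is a sequence description and not evidence of binding.

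**Figure D1:**
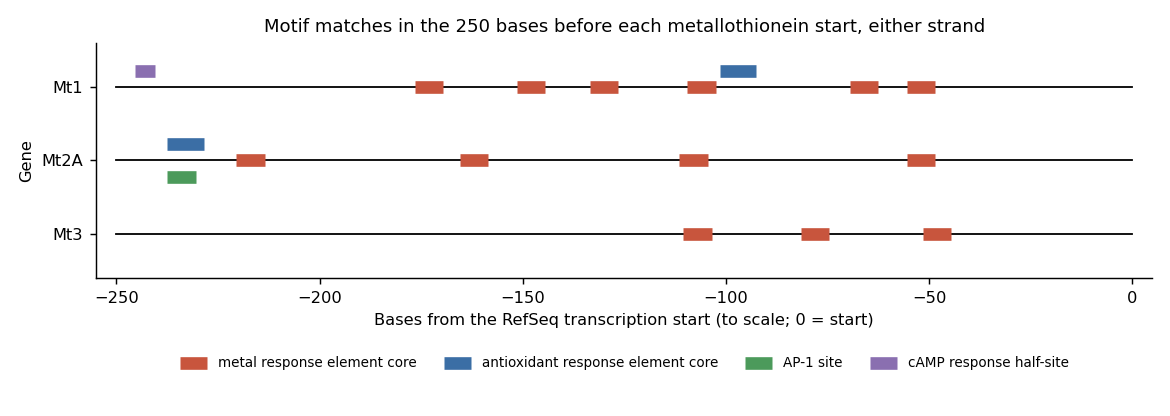
Positions of motif matches in the 250 bases before the RefSeq start of Mt1, Mt2A and Mt3, drawn to scale with distance from the start in bases on the horizontal axis. Mt1 has 6 metal response element core matches, Mt2A has 4 and Mt3 has 3, and the AP-1 match lies in Mt2A at 237 to 231 bases before the start.

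Mt2A showed the largest difference of the group over all 4 arrays. Its probe set rc_AI176456_at read 924 and 261 in controls and 3116 and 1468 after KCl, as deposited intensities in arbitrary units. Both KCl values lay above both control values, but the arrays within each group were far apart. The geometric mean was 4.36-fold higher after KCl, a log2 change of 2.12 ± 0.53 (moderated SE from limma). Fitted on its own 4 arrays without sharing variance across probe sets, the SE was 1.06. Depending on which arrays were set against each other, the fold ran from 1.59 (KCl 2 over control 1) to 11.95 (KCl 1 over control 2). With control 1 left out the log2 change was 3.04, and with control 2 left out it was 1.21. In the latter case both Hmox1 probe sets stood higher, J02722cds_at at 1.75 and rc_AI179610_at at 1.48. The rank of Mt2A as the largest thus depends on single arrays.

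Mt1, the neighbouring gene with the most metal response element core matches, did not pass. Its probe set rc_AI102562_at read 462 and 432 in controls and 468 and 465 after KCl. All 4 arrays thus lay within a narrow band, with a log2 change of 0.06 ± 0.14 (SE) and a 95% interval of −0.26 to 0.38. Measured within each array, the log2 ratio of Mt2A to Mt1 was 1.00 and −0.73 in controls, against 2.73 and 1.66 after KCl. The ratio was 4.17-fold higher after KCl, a log2 change of 2.06 ± 1.02 (SE over the 4 arrays). The probe sequences were not used here, so how far each probe set also reads the transcript of the other gene was not tested.

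Mt3, the brain-enriched member, had the brightest probe set of the 6 and the smallest difference. Probe set rc_AA924772_at read 2609 and 2532 in controls and 3779 and 2891 after KCl. The control arrays agreed closely, and KCl 2 lay 1.11-fold above control 1 and 1.14-fold above control 2. KCl 1 lay 1.45-fold above control 1 and 1.49-fold above control 2. The log2 change was 0.36 ± 0.14 (SE), with a 95% interval of 0.05 to 0.68, and it did not pass after adjustment over all probe sets. Without KCl 2 it passed, with a log2 change of 0.56. The log2 ratio of Mt2A to Mt3 was −1.50 and −3.28 in controls and −0.28 and −0.98 after KCl, so the interval between the probe sets narrowed on both KCl arrays.

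Hmox1 was read by a probe set to its coding sequence and by another to an expressed sequence tag, and both were higher after KCl. Probe set J02722cds_at read 52.7 and 53.8 in controls and 196 and 162 after KCl. Its control values lay below the highest value of the 19 bacterial and yeast background probe sets, 73.7, so its 3.34-fold difference depends on that background. The lower KCl value was 2.19 times that background value. The second probe set, rc_AI179610_at, lay above background on every array, with 221 and 284 in controls and 810 and 471 after KCl. It was 2.46-fold higher, a log2 change of 1.30 ± 0.26, beside 1.74 ± 0.28 for the other. The probe sets differed in the spread of the KCl arrays, which stood 1.72-fold apart on rc_AI179610_at and 1.21-fold apart on J02722cds_at. Single-array folds ran from 1.66 to 3.66 on the former and from 3.002 to 3.71 on the latter, where they too depend on the background.

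Both Gsta1 probe sets were higher after KCl. Probe set S72505_f_at read 141 and 102 in controls and 280 and 256 after KCl, a 2.24-fold difference with a log2 change of 1.16 ± 0.23. Probe set X78848cds_f_at read 152 and 180 in controls and 374 and 317 after KCl, a 2.09-fold difference with a log2 change of 1.06 ± 0.19. The groups did not overlap on either. The log2 ratio of the first to the second changed by 0.10 ± 0.36 (SE over the 4 arrays), so a difference between their responses was not resolved. The control arrays stood in opposite order, control 1 being the brighter on the first and the dimmer on the second, so no control array was low on both. The f in these identifiers is Affymetrix's mark for a probe set that can match several members of a gene family, so the signal cannot be assigned to Gsta1 alone. RefSeq also lists Gsta3 and Gsta5 among the older names of this gene. The separate probe set for Gsta2, rc_AI235747_at, lay within background on all arrays, with 27.2 and 44.0 in controls and 30.4 and 51.5 after KCl.

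**Figure D2:**
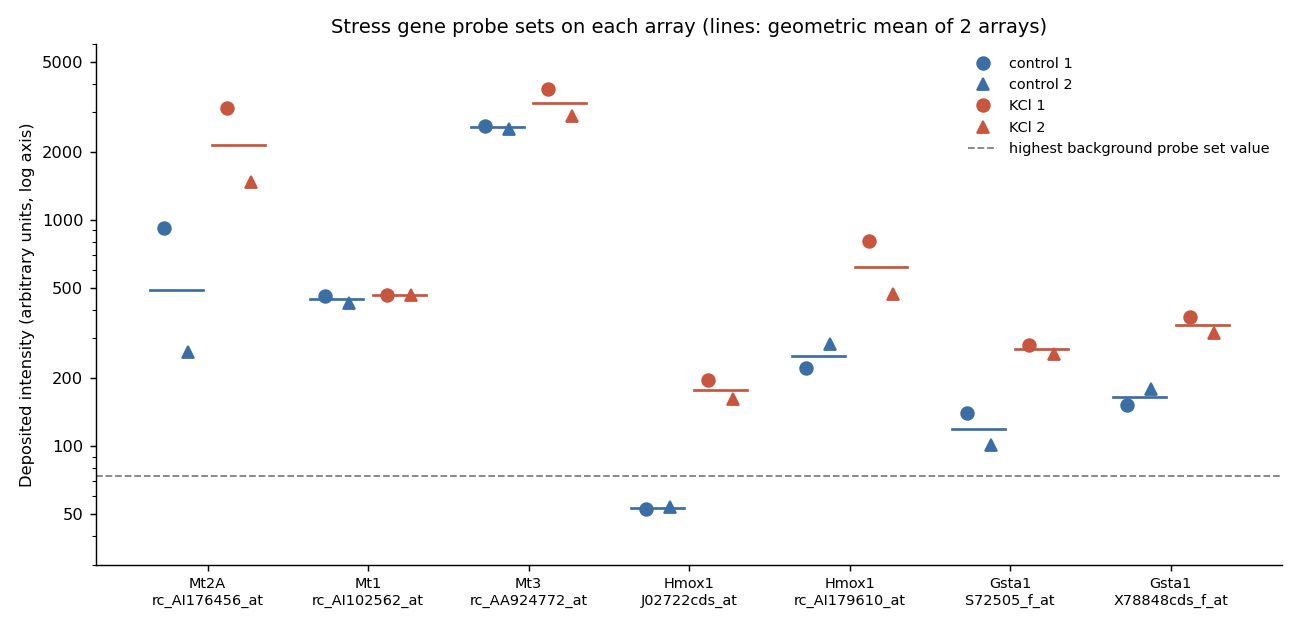
Deposited intensity of each member probe set and of Mt1 on the 4 arrays, on a log axis in arbitrary units, with control arrays in blue, KCl arrays in red and lines at the geometric mean of 2 arrays. KCl values lie above control values on every member, Mt2A is widely spread within both groups (924 and 261 in controls), Mt1 stays between 432 and 468, and the control values of Hmox1 J02722cds_at (52.7 and 53.8) lie below the dashed background line at 73.7.

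In the limma fit over the 947 tested probe sets, all 6 member probe sets were tested and 5 passed at an adjusted p below 0.05, all of them higher after KCl, with Mt3 the exception. Of all tested probe sets 10.8% passed, and 5.49% of all tested passed as higher. Nothing is read from the difference, because the same contrast was known when the genes were chosen. The 4 arrays separated the groups on 6 of 6 member probe sets, as they did on 58% of all tested probe sets. On 21.4% of all tested the groups were separate with KCl higher. The median log2 change was 1.23 over the members and −0.10 over all tested. With either control array left out, 0 of the 6 passed. In those fits the residual degrees of freedom fell from 2 to 1 and the prior degrees of freedom from 6.34 to 2.57 and 2.56. In each of them 4 members had an unadjusted p below 0.05. Without KCl 1 5 passed and without KCl 2 6 did, but there limma gave the probe set's own spread no weight. An ordinary t statistic called 0, with 3 members at an unadjusted p below 0.05.

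The brightness of the probe sets differed widely. Among the 947 tested, the mean intensity of Mt3 stood at percentile 92.4, that of Mt2A at 85.1, those of Gsta1 at 55.0 and 47.3 and those of Hmox1 at 66.7 and 33.1. Probe sets differ in how strongly they hybridize, as the Hmox1 pair shows, so this order is not an order of transcript amounts. Within a probe set, the KCl level of Mt2A on KCl 2 (1468) was 1.59 times its highest control value, and the gap was 1.77 and 1.82 for the Gsta1 probe sets and 1.66 for Hmox1 rc_AI179610_at. It was 1.11 for Mt3. For the other Hmox1 probe set the value of 3.002 depends on the background, since its controls lay within it.

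Replicate spread set Mt2A apart from other probe sets. The control arrays differed 3.54-fold, the largest ratio among the 654 probe sets that lay above background on all 4 arrays, and the KCl arrays differed 2.12-fold, the third largest. Its log2 SD was 1.29 in controls and 0.77 after KCl, against medians of 0.07 and 0.10 over the 100 probe sets nearest in mean log2 intensity, none of which reached it in either group. Mt1 read 1.07-fold apart on the same control arrays and 1.01-fold apart on the KCl arrays, so the difference between control 1 and control 2 was not shared by its neighbour. Mt3 was among the closer pairs in controls (log2 SD 0.03, percentile 24 among its 100 nearest) and among the wider ones after KCl (0.27, percentile 94). Hmox1 rc_AI179610_at was at percentiles 81 and 95. Its other probe set was at percentile 44 after KCl, and no rank is given for its control values, which lay within background. Gsta1 was at percentiles 84 and 31 on S72505_f_at and at 58 and 60 on X78848cds_f_at. KCl 1 was the brighter KCl array on 6 of 6 member probe sets, while the control arrays had no common order. Over all tested genes the median ratio of KCl 1 to KCl 2 was 0.95.

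**Figure D3:**
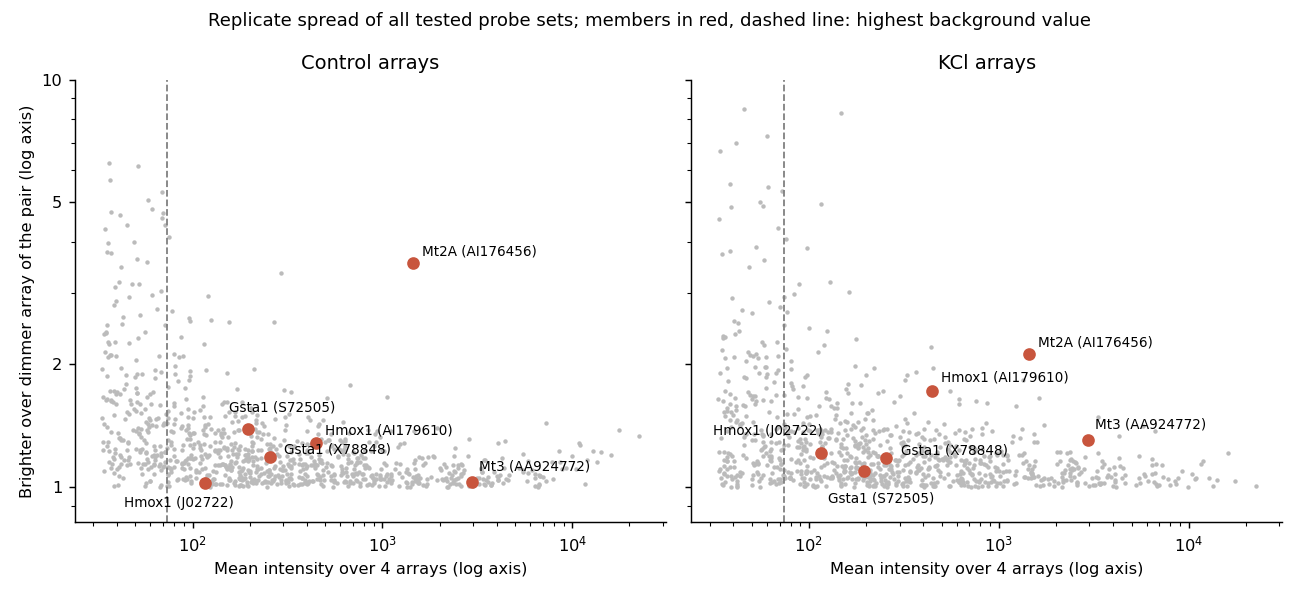
Ratio of the brighter to the dimmer array of each pair against mean intensity over 4 arrays, both on log axes, for all 947 tested probe sets in grey and the members in red, with control arrays at left and KCl arrays at right. Mt2A lies far above probe sets of like brightness, at 3.54 in controls and 2.12 after KCl, and the dashed line marks the highest background value of 73.7.

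The other metal and oxidative stress genes mostly did not pass. A list of 80 gene symbols for metal handling, haem breakdown, glutathione and thiol enzymes, superoxide and peroxide enzymes, stress regulators and heat shock proteins had 17 genes on the array and 14 with tested probe sets. Of its 26 tested probe sets, 5 were higher and 0 lower in limma, with 7 at an unadjusted p below 0.05, beside 5.49% higher and 5.28% lower over all tested. An ordinary t statistic called 0 of them. The 5 were 3 probe sets of Fos and the probe set of Jun, which encode the AP-1 partners, and 1 of 5 tested probe sets of Nos2, the inducible nitric oxide synthase. This Nos2 probe set, U16359cds_at, read 41.5 and 46.5 in controls, within background, and 199 and 357 after KCl. The other tested Nos2 probe sets gave log2 changes between −0.78 and 0.37 and did not pass. Of these, D83661_s_at, S71597_s_at and U03699complete_seq_at lay within background on all arrays, and U48829_s_at did so after KCl. Their values thus say little about a change. Without Fos, Jun and the other regulators, 1 of 21 probe sets passed and the median log2 change was −0.01, against −0.10 over all tested.

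Among enzymes that remove superoxide, Sod1 gave log2 changes of −0.07, −0.09 and 0.03 on its 3 probe sets. The mitochondrial form Sod2 gave −0.33 and did not pass, with 535 and 525 in controls and 400 and 442 after KCl. The extracellular form Sod3 was too dim to be tested. The iron uptake genes Tf and Tfrc, for transferrin and its receptor, did not pass, with log2 changes between −0.29 and 0.24. The small heat shock protein gene Hspb1 gave 0.46 on its brightest probe set, which did not pass. Its other probe sets lay within background on all arrays. Hspa1a, the inducible HSP70 gene, gave 0.18 and −0.25. No gene of the haem and bilirubin list was found on the array by symbol, and Gsta2 was the 1 gene of the glutathione and thiol list that was.

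**Figure D4:**
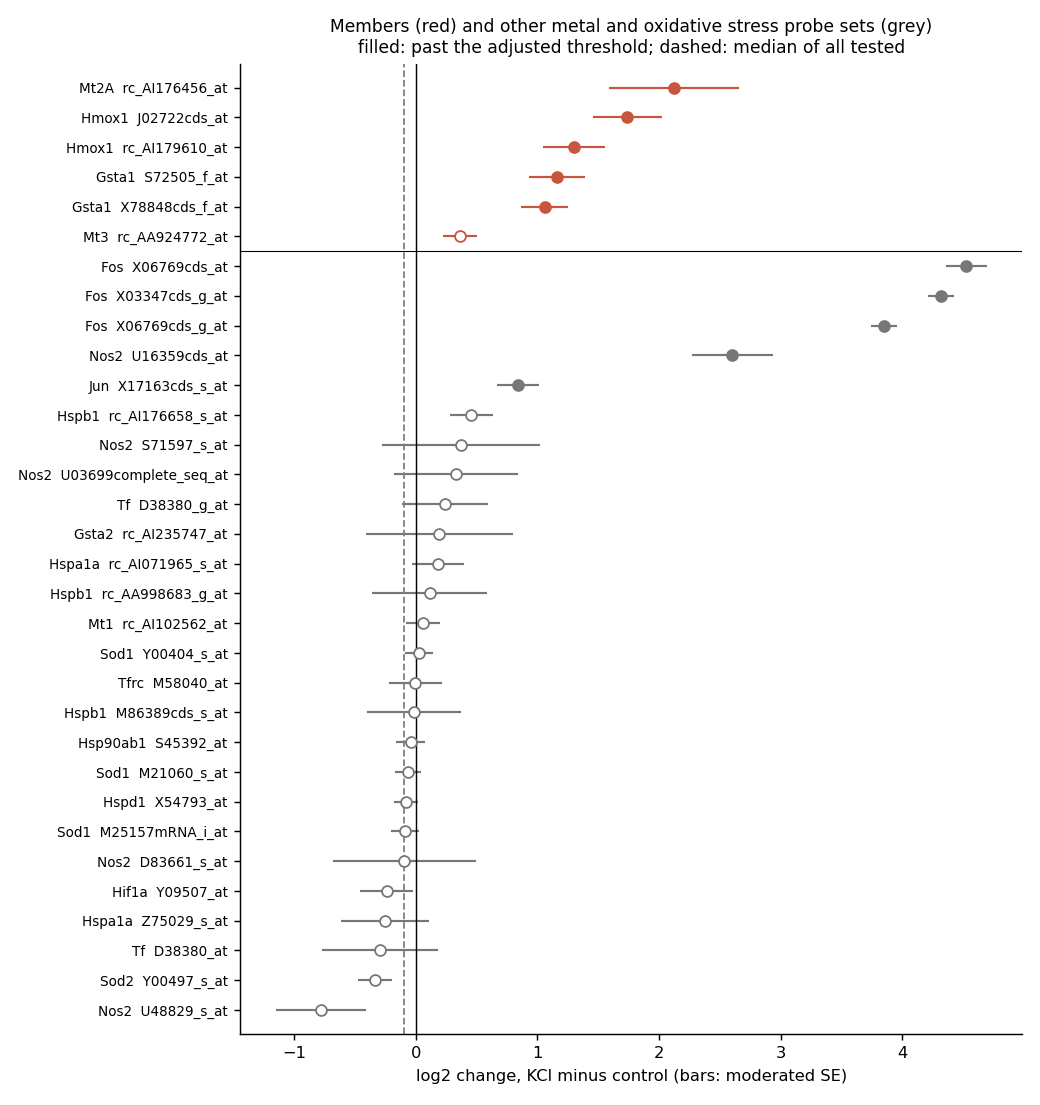
Log2 change, KCl minus control, with moderated SE bars, for the 6 member probe sets in red and the 26 tested probe sets of other metal and oxidative stress genes in grey, filled where the adjusted threshold was passed. The members, chosen by this same change, run from 0.36 (Mt3) to 2.12 (Mt2A). Most grey points lie near the dashed median of all tested probe sets at −0.10, apart from Fos, Jun and 1 probe set of Nos2. Nothing is read from the difference between members and grey points.

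Most astrocyte markers were higher after KCl, like most members. Astrocytes are known as a main site of Mt1 and Mt2A in the brain and can also make heme oxygenase 1. Mt1 did not move with the markers, with a log2 change of 0.06 ± 0.14 (SE). Of 11 markers listed, 7 had a tested probe set, and on the brightest probe set of each 6 of 7 were higher after KCl and 0 lower. Over all 15 of their tested probe sets 9 were higher and 0 lower, beside 5.49% and 5.28% of all tested. Summed over the brightest probe set of each of the 7, the intensity was 5484 and 5220 in controls and 12551 and 9974 after KCl. Slc1a2 lay within background on all arrays, and Gja1 did so in controls. Gfap, Aqp4, Aldoc and Aldh1l1 could not be matched by symbol. Since 118 probe sets carry no symbol in the annotation, these genes may have been measured. Probe sets without a symbol were fitted if bright enough, but were not assigned to a marker. Without control 1 or without control 2, 0 of the 7 passed, and the same held without the intensity trend and with an ordinary t statistic. The count was 3 with median centring, 3 with a replicate block, and 4 after quantile normalization, when dim probe sets were kept, or without KCl 1. The median log2 change of the markers was 1.27, beside 1.23 for the members, of which Mt3 gave 0.36. Nothing is read from the likeness of the medians, because members and lists were chosen with earlier results of these data known. KCl 1 was the brighter KCl array for 5 of the 7 markers, with a median ratio of 1.33, and for all 6 member probe sets, with a median ratio of 1.26. The part of these cells in the members' values was not tested, and in whole cultures a larger number of cells and more RNA per cell cannot be told apart.

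Neuronal genes had bright probe sets on every array, as the labelled cell type would have. The summed intensity of 10 neuron markers was 33432 and 34580 in controls and 31453 and 32212 after KCl. At the adjusted threshold 1 was higher (Snap25) and 0 lower. Of their 20 tested probe sets, 7 had an unadjusted p below 0.05 in limma. Those were lower after KCl for Syp, Syn2 and Nefl, and higher for Snap25. Of the other cell types, 0 of the 4 oligodendrocyte genes tested had an unadjusted p below 0.05 in limma, and 2 of them lay within background on all arrays. The 2 microglial and immune genes, Ccl2 and Itgam, both lay within background. The 1 endothelial and fibroblast gene, Vcam1, had a log2 change of 0.72 with an unadjusted p of 0.026 in limma. It did not pass after adjustment. As a sign of RNA integrity, Gapdh control probe sets gave 3′ over 5′ ratios of 1.17 to 1.23. For hexokinase this ratio was 2.25 and 2.00 in controls and 2.49 and 2.67 after KCl. The part of the hexokinase difference in these results was not tested.

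**Figure D5:**
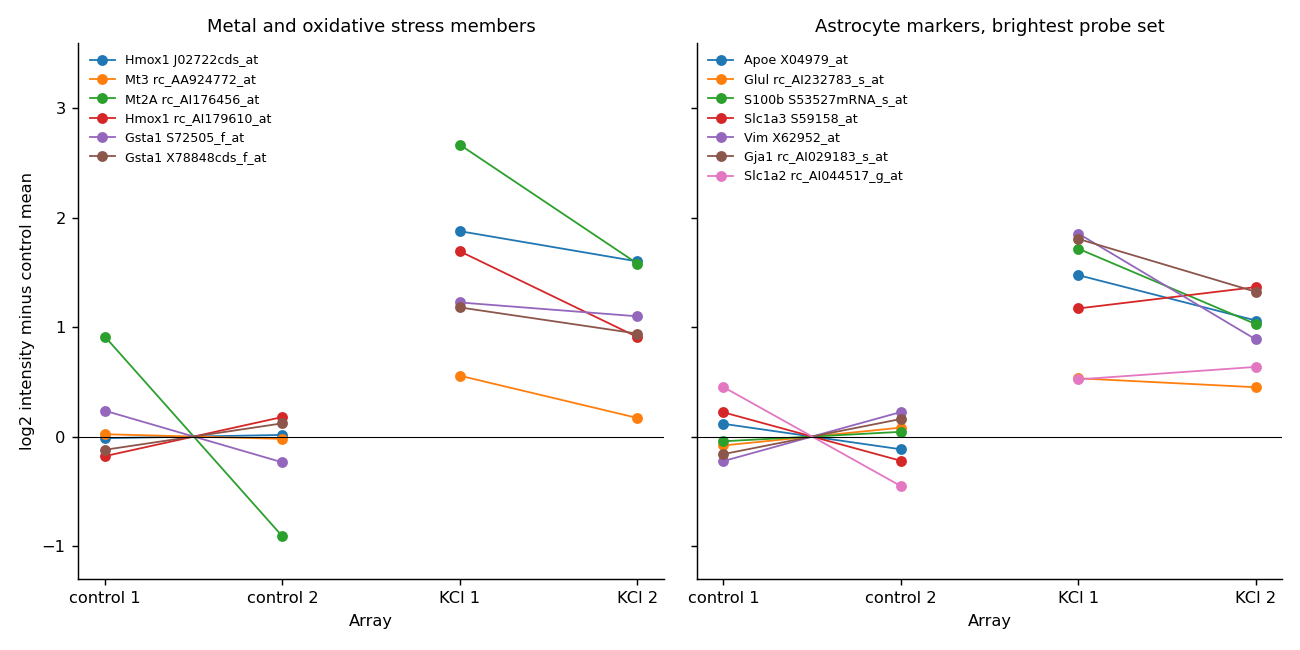
Log2 intensity minus the mean of the control arrays on each of the 4 arrays, for the 6 member probe sets at left and for 7 astrocyte markers at right, with lines joining the arrays of a group. Both sets lie above the control mean on both KCl arrays, and all 6 members and 5 of 7 markers are lower on KCl 2 than on KCl 1.

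Genes whose profile over the 4 arrays was nearest to each member were found by the Euclidean distance between log2 values centred on each probe set's mean, over the tested probe sets with 1 symbol. For Hmox1 rc_AI179610_at the nearest were Vim (distance 0.16), which encodes the intermediate filament vimentin, S100b (0.22) and a probe set of the glutamate transporter gene Slc1a3 (0.32). For Hmox1 J02722cds_at they were the transcriptional co-regulator gene Cited2 (0.23), the orphan receptor gene Nr4a3 (0.29) and the connexin gene Gja1 (0.31). The control values of this Hmox1 probe set, of Gja1 and of the Slc1a3 probe set lay within background. The Slc1a3 value on KCl 2 (48.0) did so too. For Gsta1 they were B2m (0.14), Jund (0.16) and Irf1 (0.23) on S72505_f_at, and Cebpb (0.11), Scnn1g (0.20) and Apoe (0.25) on X78848cds_f_at. Irf1 and Scnn1g lay within background on all 4 arrays, so their distances have little meaning. Mt3 lay nearest to Kcnd2 (0.09), Kcnma1 (0.14) and Gnb1 (0.14), none of which passed. Mt2A had no close neighbour, the nearest being S100a1 at 0.51, Chrna7 at 0.82 and Il2rb at 0.89, whose control values all lay within background. Chrna7 lay within background on both KCl arrays as well, and S100a1 did so on KCl 2 (72.1). These distances rest on 4 arrays and 2 conditions and describe these arrays alone.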

How the data were processed

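The data are 4 one-colour Affymetrix neurobiology arrays, hybridized with biotin-labelled cRNA from 5 µg of total RNA per the labels' protocols. The authors deposited linear intensities, 1 per probe set, already brought to one level by the authors, as their 2% trimmed means of 502.0 to 502.4 show. How probes were summarised and scaled is not stated in the labels. All values were above 0 and were analysed as log2 without further scaling. Of 1322 probe sets, 59 control probe sets and the dimmest 25% of the other 1263 by mean over 4 arrays (316) were left out, which left 947. Symbols come from the platform annotation of the deposited series, which gave 1 symbol to 1137 probe sets, several to 8 and none to 118. All 4 member genes and Mt1 matched RefSeq by gene identifier.

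KCl was compared with control in limma 3.58.1 (R 4.3.3, lmFit and eBayes with an intensity trend), two-sided, with Benjamini-Hochberg adjustment over 947 probe sets and a threshold of 0.05. An exact permutation test of 2 against 2 arrays cannot go below p = 0.33, so calls rest on variance shared across probe sets. Precision is limited by having 4 arrays. The fit was tested on simulated data. Genes named are the members, list genes that passed or are nearest in family, and the 3 nearest profiles of each member; further list genes were picked with their values in view. The members and lists were chosen with earlier results of these data known. The alternatives were other normalizations, a pseudocount, other filters and variance models, a replicate block, and leaving out each array.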

Additional observations from a re-analysis of the deposited data

How the results depend on the processing

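Every member probe set kept its direction in every alternative in which it was tested. Because both KCl values lay above both control values on each, only the other normalizations could have changed it. Of the 5 that passed, all stayed past the threshold with a pseudocount of 32. Mt2A did not pass with quantile normalization (log2 change 2.16), with median centring (2.12), with dim probe sets kept (2.12) or without the intensity trend (2.12), and its adjusted p in limma under those 4 settings was 0.10, 0.053, 0.098 and 0.23. Without the trend the second Hmox1 probe set, rc_AI179610_at (1.30), and the Gsta1 probe sets (1.16 and 1.06) did not pass either, and with an ordinary t statistic none of the 5 did (1.74 for Hmox1 J02722cds_at, 2.12, 1.30, 1.16 and 1.06). Leaving out 1 array at a time, the log2 change of Mt2A ran from 1.21 to 3.04, Mt3 from 0.17 to 0.56, Hmox1 J02722cds_at from 1.60 to 1.88, Hmox1 rc_AI179610_at from 0.91 to 1.69, Gsta1 S72505_f_at from 0.93 to 1.40 and Gsta1 X78848cds_f_at from 0.94 to 1.18. The lone array of a group is then assumed to vary like the other group. Hmox1 J02722cds_at fell under the stricter filter (dimmest 50%) and has no value there. Its control log2 SD of 0.02 became 0.10 with quantile normalization and 0.076 with median centring.

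The number of member probe sets that passed as higher was 5, with 1 without the trend, 0 with an ordinary t statistic and 0 to 6 with single arrays left out. Over all tested probe sets 52 were higher and 50 lower. There were 18 and 3 without the trend and 0 and 0 with an ordinary t statistic (157 at an unadjusted p below 0.05). Lower calls were 31 after quantile normalization and 33 when dim probe sets were kept. With single arrays left out, higher calls ran from 10 to 72 and lower calls from 1 to 106. For the other stress genes, 5 higher became 3 without the trend, 0 with an ordinary t statistic and 3 to 5 with single arrays left out, and lower calls ran from 0 to 1. With a replicate block 2 member probe sets passed, Mt2A and Hmox1 J02722cds_at. Hmox1 rc_AI179610_at (1.30) and the Gsta1 probe sets (1.16 and 1.06) did not, and over all probe sets 15 were lower. The labels do not say that the numbers pair cultures, and same-numbered arrays did not deviate together (r = −0.03 across probe sets, which are not independent).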

Other observations

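Mt2A was the brighter on the array numbered 1 in both groups, 3.54-fold in controls and 2.12-fold after KCl. Set against the array of the same number, it was 3.37-fold higher on KCl 1 and 5.63-fold higher on KCl 2. The control difference was not accompanied by one of like size in Mt1 (462 and 432), in Mt3 (2609 and 2532), in Hmox1 rc_AI179610_at (221 and 284) or in the summed astrocyte markers (5484 and 5220). The next largest ratio between the control arrays among probe sets above background on all 4 arrays was 2.54, on AF078779_g_at, a probe set of the sodium leak channel gene Nalcn. No test bears on these values, which come from single arrays.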
